A study of Mus musculus with 24 samples.

Results

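The LRRC8 proteins are the subunits of the volume-regulated anion channel, and the 5 mouse genes that encode them, Lrrc8a to Lrrc8e, were followed here among the 55487 gene identifiers counted in each library. The family was selected on measured values: Lrrc8a stood out in the hippocampus of bulbectomised mice in the same libraries, so every hippocampus value of the family after bulbectomy is given as a description, without a test. Olfactory bulbectomy is the surgical removal of the olfactory bulbs, and sham-operated mice went through surgery without it. The study sequenced polyA RNA of wild-type mice from 3 brain tissues in 24 libraries. Bulbectomised mice gave 4 hippocampus, 3 cortex and 2 cerebellum libraries, and sham-operated mice gave 5 libraries of each tissue. The labels give no strain, sex or age for the mice and no time after surgery. Nothing in the labels says whether libraries with the same number came from 1 animal, and p-values measure only the spread between these libraries.

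A cell that swells opens the volume-regulated anion channel and loses chloride and small organic solutes such as taurine and glutamate, and water follows. The channel is a hexamer that needs LRRC8A to reach the cell surface, and LRRC8A joins with LRRC8B, LRRC8C, LRRC8D or LRRC8E. The partners set which solutes pass: LRRC8D favours uncharged osmolytes and larger organic solutes, and LRRC8C and LRRC8E carry the cyclic dinucleotide cGAMP. In the brain the channel is known best from astrocytes, where swelling releases glutamate and aspartate through it.

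All 5 genes were located in the GENCODE M21 annotation of GRCm38. Lrrc8a (ENSMUSG00000007476) lies on the plus strand of chromosome 2, from 30237715 to 30263790. Lrrc8b (ENSMUSG00000070639, 105415775 to 105490074), Lrrc8c (ENSMUSG00000054720, 105519388 to 105613018) and Lrrc8d (ENSMUSG00000046079, 105699969 to 105832436) follow each other on the plus strand of chromosome 5. Lrrc8e (ENSMUSG00000046589) lies on the plus strand of chromosome 8, from 4226827 to 4237470. The first 45 coding bases of each reading frame are shown as a short example of how the sequences compare. They are not a measure of how reads were told apart. The start codon is in capitals.
Lrrc8a: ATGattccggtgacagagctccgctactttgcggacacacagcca
Lrrc8b: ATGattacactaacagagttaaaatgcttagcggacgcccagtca
Lrrc8c: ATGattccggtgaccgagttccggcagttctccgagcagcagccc
Lrrc8d: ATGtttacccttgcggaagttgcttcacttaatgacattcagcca
Lrrc8e: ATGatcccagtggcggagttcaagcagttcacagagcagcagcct
Of these 45 bases, Lrrc8c matched Lrrc8a at 32, Lrrc8b at 31, Lrrc8e at 27 and Lrrc8d at 24. Over all annotated transcripts, Lrrc8a had no run of 30 bases in common with another member, and the longest common run was 26 bases, with Lrrc8b. Lrrc8b and Lrrc8c had a single run of 30 bases in common. The coding frame holds 810 codons before the stop in Lrrc8a, 803 in Lrrc8b and in Lrrc8c, 859 in Lrrc8d and 795 in Lrrc8e.

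Lrrc8a is the member whose reads are the hardest to assign. The annotation places a further gene, Gm28035 (ENSMUSG00000099041, chromosome 2, 30240567 to 30282148), on the same strand, with a transcript annotated as a target of nonsense-mediated decay that runs from the Lrrc8a exons into those of the next gene, Phyhd1 (ENSMUSG00000079484, 30266203 to 30282149). Gm28035 holds 2853 of the 4308 exon bases of Lrrc8a, 66.2%, among them the whole coding frame of 2433 bases with its stop codon. The junction of the coding exons of Lrrc8a, from 30257332 to 30261848, was found letter for letter in Gm28035, and so were the last coding bases, from 30262094 to 30262123. In the first sequence capitals mark the end of the first coding exon, and in the second they mark the stop codon.
Lrrc8a and Gm28035, exon junction: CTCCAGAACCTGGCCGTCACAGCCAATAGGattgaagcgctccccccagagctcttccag
Lrrc8a and Gm28035, last coding bases: ctctggagagctgacaaggagcaggccTGA
The 1455 bases that Lrrc8a does not share with a gene on its strand are 91 bases of the first exon in the 5′ UTR and the last 1364 bases of the 3′ UTR, from 30262427 to 30263790. The 91 bases lie opposite 1700084E18Rik, an antisense gene. Gm28035 had 0 reads in 21 of the 24 libraries. It had 1 read in hippocampus bulbectomy 4, 4 reads in hippocampus sham 4 and 2 reads in cortex sham 2. Of its 4238 exon bases 96.8% are shared, and 136 are not. If reads on shared bases are dropped, only these 136 bases can give it counts, so its counts say little about its level. Where reads on shared bases are dropped as ambiguous, the levels of Lrrc8a below are levels of its unshared bases, mostly the distal 3′ UTR. The strand setting of the counting is not given in the sources used here, so whether the 91 bases gave counts is not known. The other members shared no exon bases on their strand, and Lrrc8dos, antisense to Lrrc8d, had 0 reads in all but 3 libraries.

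**Figure D1:**
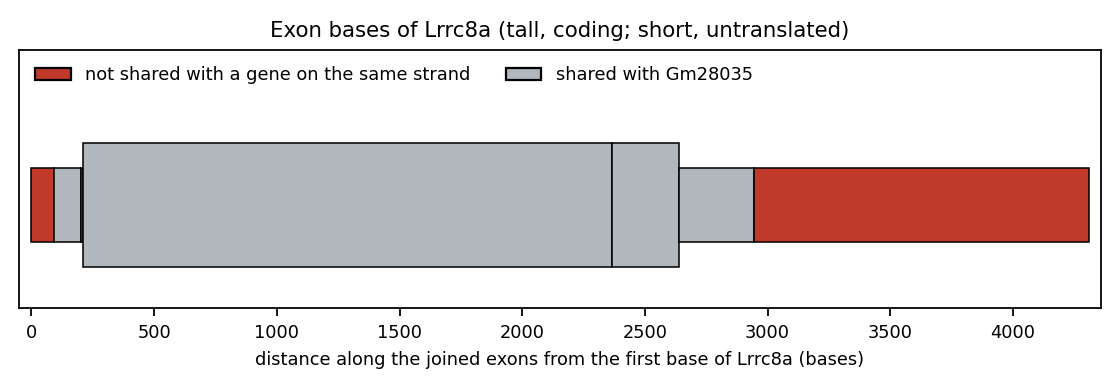
Exon bases of Lrrc8a joined end to end, with the distance from the first base on the horizontal axis in bases. Tall boxes are coding and short boxes are untranslated. Grey boxes are shared with Gm28035 and red boxes with no gene of that strand. The red bases are 91 at the left and 1364 at the right.

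Reads assigned to genes ranged between 8145624 and 9445468 in hippocampus bulbectomy libraries and between 3255661 and 138963332 in hippocampus sham libraries. The cortex and cerebellum libraries held between 10073878 and 20230673. Hippocampus sham 1 and 2 stood apart: 19 genes of striatal medium spiny neurons summed to 841 to 961 CPM (counts per 1e+06 assigned reads, scaled by TMM) in the hippocampus bulbectomy libraries, against 4630 and 6010 CPM in sham 1 and 2 and 657 to 1000 CPM in the other hippocampus sham libraries. Cerebellum sham 1 also stood apart, with 875 CPM of thalamus and habenula genes against 329 to 430 CPM in the other cerebellum sham libraries. The cortex and cerebellum labels fitted their markers in the sham libraries. There 10 of 10 cerebellar granule cell genes were higher in cerebellum than in cortex, and 8 of 12 cortical layer genes passed the test as higher in cortex. Of dentate granule cell genes, 7 of 10 were higher in sham hippocampus than in sham cortex. Hippocampus sham 2, however, held 99 CPM of them, against 121 to 162 CPM in cortex sham libraries. Its CA pyramidal cell genes summed to 432 CPM, against 292 to 393 CPM in cortex sham libraries. Astrocyte genes summed to 5170 to 7720 CPM in hippocampus bulbectomy libraries and 3370 to 5730 CPM in hippocampus sham libraries.

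Lrrc8a, the obligatory subunit, was higher after bulbectomy in all 3 tissues, with no overlap between the libraries. Of 13513 genes tested in all 3 tissues, 17 had this pattern, and 1 of these tissues, the hippocampus, chose the family. In the hippocampus Lrrc8a measured 46.5, 49.5, 48.1 and 56.3 CPM in bulbectomy libraries, against 8.56, 9.60, 9.57, 12.8 and 14.7 CPM in sham libraries. Every bulbectomy library stood above every sham library, and the log2 fold change was 2.19 ± 0.19 (SE). Without hippocampus sham 1 and 2 it was 2.05. Among all 13985 genes tested there, 4.06% had every bulbectomy library above every sham library, 5.42% had every one below, and 1.55% passed an adjusted p of 0.05 by edgeR's quasi-likelihood test. These shares are the background of the contrast that chose the family. The counts behind the values were 379 to 465 reads in bulbectomy libraries and 29 to 2108 reads in sham libraries.

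The cortex was outside the hippocampus contrast that chose the family, but the choice was made with earlier results of these data known. In the cortex Lrrc8a measured 13.8, 31.6 and 34.5 CPM in bulbectomy libraries 1, 2 and 4, against 8.85, 9.86, 13.3, 12 and 12.1 CPM in sham libraries. Bulbectomy library 1 lay just above the highest sham library and the other bulbectomy libraries lay far above it. The log2 fold change was 1.21 ± 0.27 (SE; 95% interval 0.63 to 1.79), ranked 24 of 14847 genes by p, and did not pass edgeR's quasi-likelihood test after Benjamini-Hochberg adjustment (adjusted p = 0.376). In DESeq2 the adjusted p was 0.0246, and over all alternatives it lay between 0.00491 and 1. Without cortex bulbectomy 1 the fold change was 1.51 with an edgeR adjusted p of 0.00491. By edgeR 0.0202% of the genes tested were called, by DESeq2 0.262%, and 5.91% had an unadjusted p under 0.05. Every bulbectomy library lay above every sham library for 2.19% of genes and below for 1.40%.

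In the cerebellum Lrrc8a measured 62.4 and 48.8 CPM in bulbectomy libraries, against 23.8, 15.7, 15.2, 20.6 and 14.3 CPM in sham libraries. Both bulbectomy libraries were more than 2 times as high as the highest sham library. The log2 fold change was 1.60 ± 0.29 (SE; 95% interval 0.93 to 2.27), ranked 5 of 15295 genes by p, and did not pass edgeR's test (adjusted p = 1). DESeq2 gave an adjusted p of 0.0181, and the alternatives ran between 0.00165, without cerebellum sham 1, and 1. In this tissue 0.0131% of genes were called by edgeR and 0.0603% by DESeq2, and 2.97% had an unadjusted p under 0.05. Bulbectomy libraries were all above sham for 6.02% of genes and all below for 4.90%, a large background that comes with 2 libraries in a group.

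The cortex and cerebellum were also read together, as the mean of both bulbectomy effects in 1 fit of their 15 libraries, a contrast added after the values had been seen. Lrrc8a was 1.42 ± 0.20 higher on the log2 scale (edgeR adjusted p = 0.0134, rank 3 of 16325 genes, with 0.0429% of genes called). It was higher in 5 of 5 bulbectomy libraries than in every sham library of the same tissue. This pattern held for 2.19% of all genes tested in the cortex and for 6.02% in the cerebellum. The share of genes with it in both tissues was not counted. The call was lost without cortex bulbectomy 2 (adjusted p = 0.0758), cortex bulbectomy 4 (0.05002), cortex sham 1 (0.0548), cerebellum bulbectomy 1 (0.219) or cerebellum bulbectomy 2 (0.0625), while the fold change stayed between 1.31 and 1.58 with any 1 library left out. The difference between the effects, cortex minus cerebellum, was -0.39 ± 0.37 (95% interval -1.16 to 0.38; edgeR adjusted p = 1). For that difference 0% of genes were called by edgeR or DESeq2, and 1.67% had an unadjusted p under 0.05. The hippocampus effect exceeded the cortex effect by 0.93 ± 0.34 and the cerebellum effect by 0.53 ± 0.36. These are values only, because the family was chosen for its hippocampus effect, a choice that favours a larger value there.

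**Figure D2:**
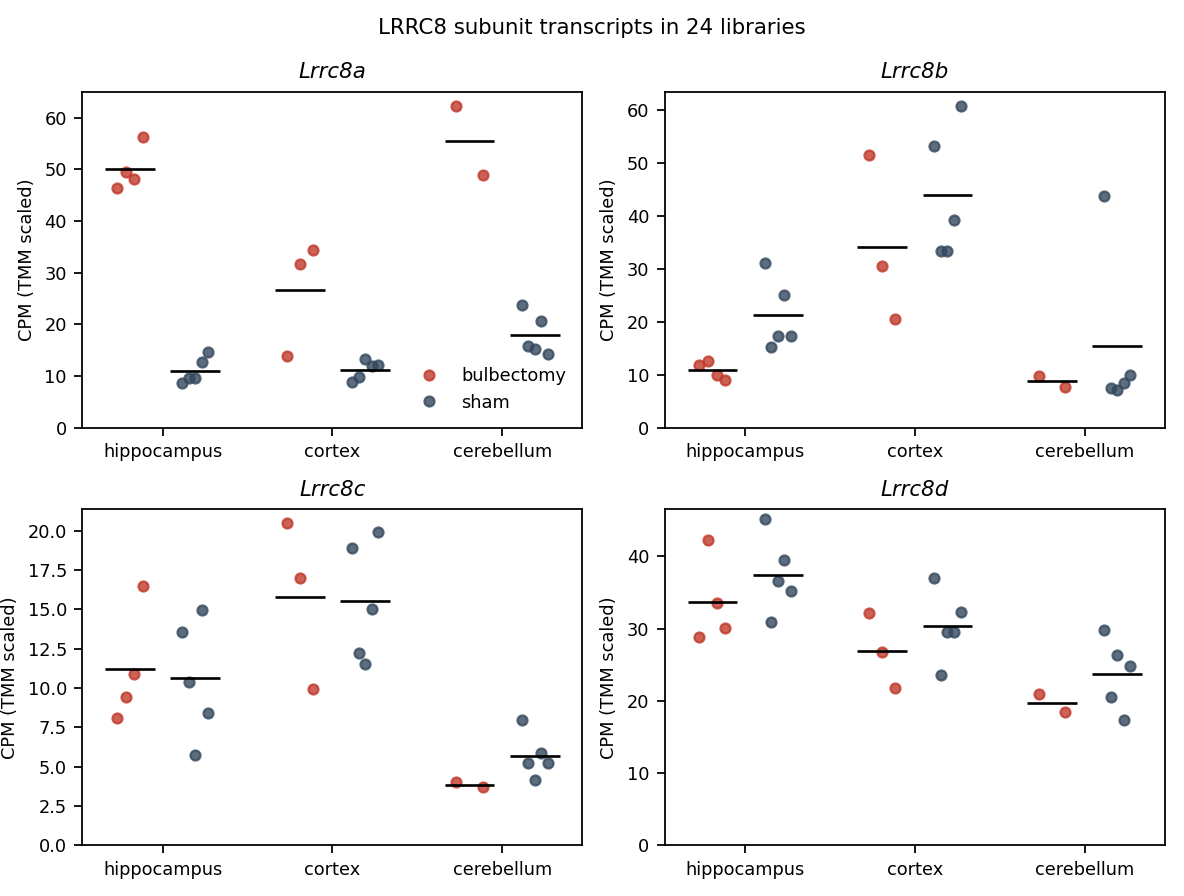
Level of 4 members in each of the 24 libraries, in CPM (TMM scaled) on the vertical axis, by tissue and operation on the horizontal axis, with bulbectomy in red left of sham in dark blue. Each point is 1 library and the black line is the group mean. For Lrrc8a the bulbectomy libraries, 46.5 to 56.3 CPM in the hippocampus, lie above the sham libraries in all 3 tissues.

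Genes with over 50% of their exon bases shared on their strand were counted as a class, with Lrrc8a among them. The part of such sharing in the Lrrc8a values was not tested. In the hippocampus 45 such genes were tested and 44.4% had an unadjusted p under 0.05, against 19.7% of the 12925 genes that share no bases. In the cerebellum the shares were 18.9% of 74 such genes and 2.86% of 14105 genes that share none, and in the cortex they were 12.1% of 58 and 5.65% of 13710. Their median size of change, regardless of direction, was 0.63 in the hippocampus, 0.46 in the cortex and 0.56 in the cerebellum on the log2 scale, against 0.30, 0.20 and 0.25 for genes that share none. Their median level was also lower, 3.38 CPM in the hippocampus against 15.9 CPM. Reads dropped as ambiguous made up 4.29% to 4.58% in hippocampus bulbectomy libraries and 3.92% to 4.47% in hippocampus sham libraries. In the cerebellum they made up 5.02% to 5.08% after bulbectomy and 4.04% to 5.02% after sham. Phyhd1 stayed low, at most 29 reads in a bulbectomy library and 175 in a sham library, the deepest one.

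Lrrc8b, one of the partner subunits, was lower after bulbectomy in the hippocampus. It measured 11.9, 12.6, 10.02 and 8.96 CPM in bulbectomy libraries, against 31.0, 15.3, 17.2, 25.1 and 17.3 CPM in sham libraries. Every bulbectomy library stood below every sham library, as for 5.42% of all genes tested there. The log2 fold change was -0.92 ± 0.24, or -0.84 without hippocampus sham 1 and 2. In the cortex it measured 51.4, 30.4 and 20.5 CPM in bulbectomy libraries, against 33.3 to 60.7 CPM with a median of 39.1 CPM in sham libraries. These groups overlapped, and the log2 fold change was -0.37 ± 0.31 (edgeR adjusted p = 0.886; 95% interval -1.05 to 0.31). In the cerebellum it measured 9.82 and 7.64 CPM in bulbectomy libraries, against 43.8, 7.56, 7.06, 8.34 and 9.91 CPM in sham libraries. Sham library 1 held 573 reads of Lrrc8b, far above the other libraries, and the log2 fold change was -0.90 ± 0.87 with it and 0.09 without it, with edgeR adjusted p of 1 and 0.929.

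Lrrc8c, a partner that joins LRRC8A in cGAMP transport, passed no test in the cortex or cerebellum. In the hippocampus it measured 8.11, 9.43, 10.9 and 16.5 CPM in bulbectomy libraries, against 13.6, 10.4, 5.74, 14.9 and 8.40 CPM in sham libraries. The groups overlapped and the log2 fold change was 0.11 ± 0.30. In the cortex the values were 20.5, 17.0 and 9.92 CPM after bulbectomy and 11.5 to 19.9 CPM after sham, a log2 fold change of 0.02 ± 0.28 (edgeR adjusted p = 0.991; 95% interval -0.60 to 0.64). In the cerebellum it measured 4.01 and 3.70 CPM in bulbectomy libraries, against 7.95, 5.21, 4.12, 5.88 and 5.21 CPM in sham libraries. Both bulbectomy libraries lay below all sham libraries, as for 4.90% of all genes tested there. The log2 fold change was -0.59 ± 0.39 (edgeR adjusted p = 1; 95% interval -1.50 to 0.31).

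Lrrc8d, the partner that favours organic osmolytes, overlapped between the groups in every tissue. In the hippocampus it measured 28.8, 42.2, 33.5 and 30.04 CPM in bulbectomy libraries, against 45.1, 31.0, 36.6, 39.5 and 35.2 CPM in sham libraries. In the cortex it measured 32.2, 26.8 and 21.8 CPM in bulbectomy libraries, against 23.6 to 37.0 CPM in sham libraries. In the cerebellum it measured 20.9 and 18.5 CPM in bulbectomy libraries, against 17.3 to 29.9 CPM in sham libraries. The log2 fold changes were -0.12 ± 0.17 in the hippocampus, -0.18 ± 0.21 in the cortex (95% interval -0.63 to 0.27) and -0.30 ± 0.29 in the cerebellum (95% interval -0.95 to 0.36), with edgeR adjusted p of 0.899 and 1 in the last 2 tissues.

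Lrrc8e, the subunit known mostly from epithelia, was at the edge of detection. It had 1, 3, 1 and 1 reads in hippocampus bulbectomy libraries, against 0, 0, 1, 14 and 0 reads in hippocampus sham libraries, where the 14 reads came from the library of 138963332 assigned reads. Cortex bulbectomy libraries had 1, 0 and 6 reads and cortex sham libraries 0 to 9. Cerebellum bulbectomy libraries had 0 and 2 reads and cerebellum sham libraries 0 to 4. It did not reach the count filter of any edgeR test. A count of 0 allows up to 3 reads, which is 0.215 CPM in cerebellum bulbectomy 1, and such limits cover counting error only. Over the 4 members tested, the median log2 fold change was -0.01 in the hippocampus, -0.08 in the cortex and -0.445 in the cerebellum, against 0.02, 0.01 and -0.06 over all genes tested.

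**Figure D3:**
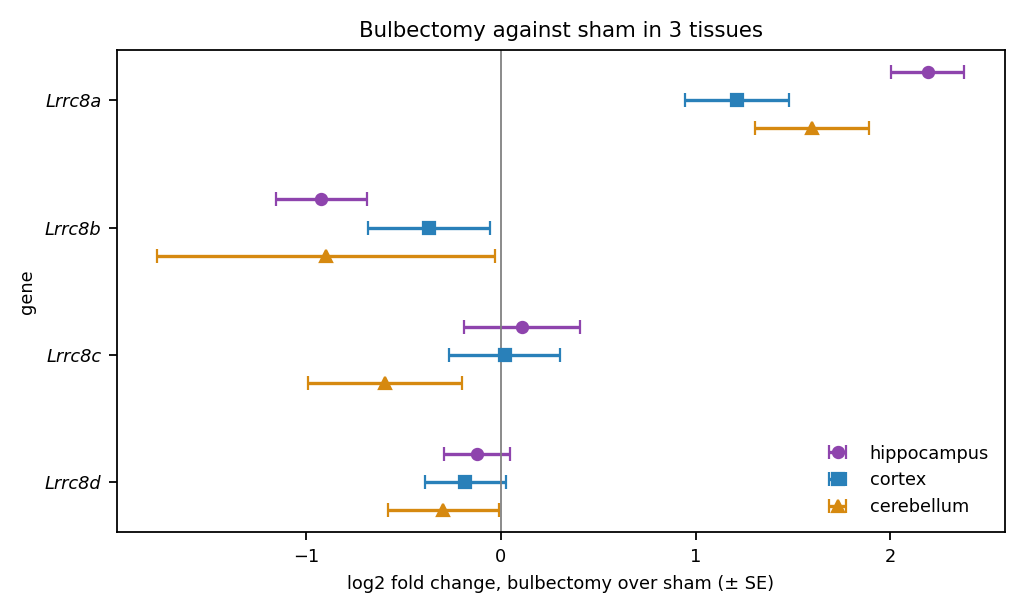
Log2 fold change of bulbectomy over sham on the horizontal axis, with its SE as the bar, for 4 members in 3 tissues. Lrrc8a lies right of 0 in each tissue, at 2.19, 1.21 and 1.60, and Lrrc8c lies at 0.11, 0.02 and -0.59.

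The make-up of the family was read as each member's share of the summed reads per kilobase of unshared exon, which does not depend on library size. Lrrc8a made up 85.6% ± 1.3 of the sum in hippocampus bulbectomy libraries (SD, n = 4) and 50.2% ± 8.5 in hippocampus sham libraries (n = 5). The shares ran between 83.8% and 86.8% after bulbectomy and between 37.1% and 61.0% after sham. Lrrc8b made up 4.06% ± 0.82 after bulbectomy and 20.7% ± 5.1 after sham, Lrrc8c 3.60% ± 0.89 and 9.09% ± 2.63, and Lrrc8d 6.68% ± 1.24 and 19.9% ± 2.7. In the cortex Lrrc8a made up 79.2%, 71.0% and 42.4% of the sum in bulbectomy libraries 4, 2 and 1, against 31.4% to 50.9% in sham libraries. These groups overlapped through bulbectomy library 1 (difference 22.5 percentage points, exact permutation test, two-sided p = 0.0714, adjusted over 10 tests 0.143). In the cerebellum it made up 91.5% and 92.2% in bulbectomy libraries, against 62.3% to 80.5% in sham libraries, a difference of 19.4 points (exact permutation test, two-sided p = 0.0476, the smallest that 2 against 5 libraries allow; adjusted p = 0.119). Of the 10 exact permutation tests in cortex and cerebellum, 0 passed after adjustment and 4 had an unadjusted p under 0.05. These were the tests of Lrrc8a, Lrrc8c and Lrrc8d in the cerebellum and of Lrrc8d in the cortex. The shares of a library add up to a fixed total, so a higher Lrrc8a share lowers the others. The tests of the members are therefore not separate results. Counted per kilobase of all exon bases, the Lrrc8a share was 66.7% ± 2.2 after bulbectomy and 25.8% ± 6.4 after sham in the hippocampus, so the level of this share rests on which bases could be counted.

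**Figure D4:**
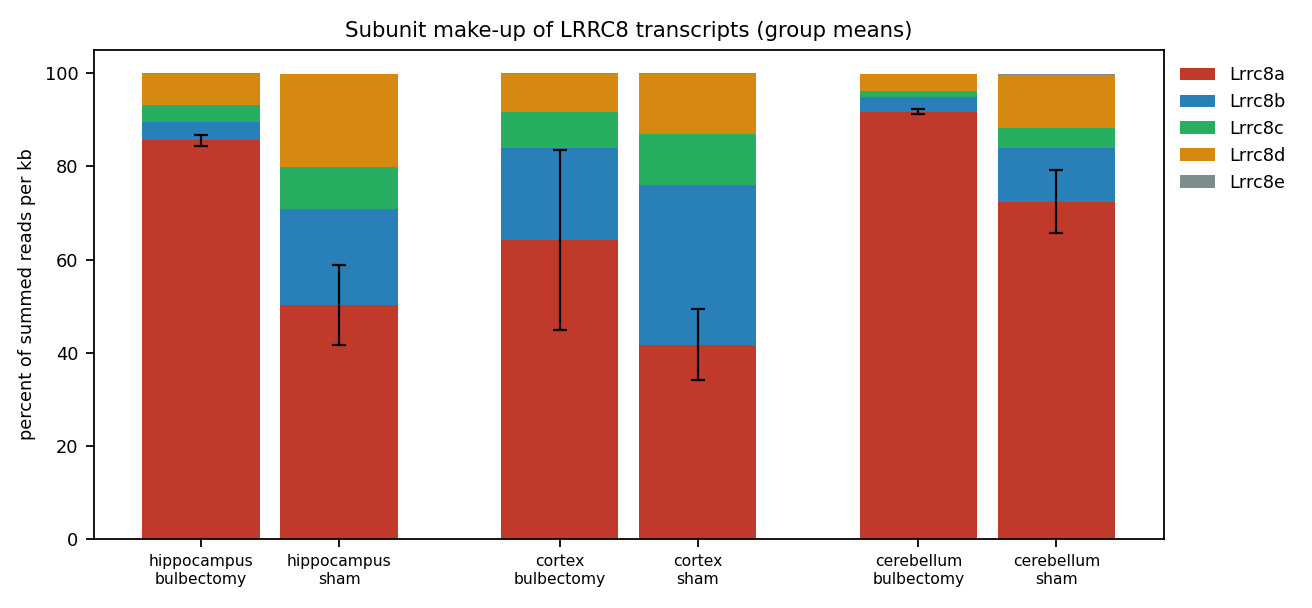
Mean share of each member in the summed reads per kilobase of unshared exon, in percent on the vertical axis, by tissue and operation on the horizontal axis, with bulbectomy left of sham. Bars start at 0, and the black error bar is the SD of the Lrrc8a share. Lrrc8a takes 85.6% of the hippocampus bulbectomy bar and 50.2% of the hippocampus sham bar.

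The sham tissues differed in the subunits they carried. Per kilobase of unshared exon, sham hippocampus held 7.59 ± 1.78 CPM of Lrrc8a, 3.15 ± 0.99 of Lrrc8b, 2.98 ± 0.42 of Lrrc8d, 1.39 ± 0.49 of Lrrc8c and 0.0099 ± 0.0139 of Lrrc8e (SD, n = 5). Lrrc8b and Lrrc8d did not differ there beyond their spread. Sham cortex held 7.72 ± 1.26 CPM per kilobase of Lrrc8a, 6.53 ± 1.84 of Lrrc8b, 2.41 ± 0.39 of Lrrc8d and 2.03 ± 0.50 of Lrrc8c, and the first pair and the last pair each lay within their spread. Sham cerebellum held 12.3 ± 2.8 CPM per kilobase of Lrrc8a and 2.28 ± 2.37 of Lrrc8b. It held 1.89 ± 0.39 of Lrrc8d and 0.741 ± 0.185 of Lrrc8c. The mean and spread of Lrrc8b rested on cerebellum sham 1, where it measured 6.51 against 2.38 for Lrrc8d. In cerebellum sham 2, 3, 4 and 5 Lrrc8b measured 1.12, 1.05, 1.24 and 1.47, below Lrrc8d at 1.63, 2.09, 1.38 and 1.98.

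Compared between sham tissues, Lrrc8a was lower in both forebrain tissues than in cerebellum, and 2 partners passed the test as higher in each, in contrasts that share the cerebellum libraries. The hippocampus sham libraries also entered the contrast that chose the family, so tests of Lrrc8a with them are not independent of that choice. Hippocampus against cerebellum, the log2 difference was -0.63 ± 0.21 for Lrrc8a (edgeR adjusted p = 0.0315), 0.97 ± 0.28 for Lrrc8c (0.0157) and 0.72 ± 0.18 for Lrrc8d (0.00508), where 28.4% of all genes were called. For Lrrc8b it was 0.52 ± 0.46 (adjusted p = 0.445), and 1.43 (0.000175) without cerebellum sham 1. Sham libraries of the same number in these tissues tended to deviate together (correlations 0.25 to 0.44), but pairs of other numbers reached 0.37. With the number as a replicate block Lrrc8b differed by 0.86 (edgeR adjusted p = 0.0406). Without hippocampus sham 1 and 2, the calls of Lrrc8a (-0.49, adjusted p = 0.168) and Lrrc8c (0.85, adjusted p = 0.0744) were lost, and Lrrc8d kept its call. Cortex against cerebellum, the difference was -0.59 ± 0.21 for Lrrc8a (edgeR adjusted p = 0.034), 1.59 ± 0.46 for Lrrc8b (0.0129), 1.53 ± 0.28 for Lrrc8c (0.000444) and 0.44 ± 0.17 for Lrrc8d (0.0629), where 34.7% of genes were called. The Lrrc8b difference was 2.49 without cerebellum sham 1, more than 1.5 times as large. The Lrrc8a calls of both contrasts were lost with no filter on low counts (edgeR adjusted p = 0.0796 in each). For hippocampus against cerebellum the call was also lost without hippocampus sham 1 (0.0684), 2 (0.071) or 3 (0.0762) or cerebellum sham 1 (0.0558) or 4 (0.0763), and the Lrrc8c call without hippocampus sham 4 (0.0572). For cortex against cerebellum it was lost without cortex sham 1 (0.0878), 2 (0.0582), 4 (0.053) or 5 (0.0536) or cerebellum sham 4 (0.0839), and Lrrc8d was called without cerebellum sham 1 (0.0157). Hippocampus against cortex, 0 members and 3.30% of genes were called. For Lrrc8b the log2 difference was -1.08 ± 0.46, with an unadjusted p of 0.0314 by edgeR's test and an adjusted p of 0.289, and it was called without cerebellum sham 1 (-1.07, adjusted p = 0.00624), which enters this fit through the shared spread.

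The shares, which compare subunits within a library, also differed between the sham tissues. Lrrc8a made up 50.2% ± 8.5 of the sum in sham hippocampus, 41.7% ± 7.6 in sham cortex and 72.4% ± 6.8 in sham cerebellum (SD, n = 5 each). Lrrc8b made up 20.7% ± 5.1 in hippocampus, 34.4% ± 5.8 in cortex and 11.5% ± 7.5 in cerebellum. Lrrc8d made up 19.9% ± 2.7 in hippocampus, 12.9% ± 1.4 in cortex and 11.4% ± 3.0 in cerebellum. Per kilobase of all exon bases the Lrrc8a shares were 25.8%, 19.7% and 47.6% in these tissues, and Lrrc8b, at 30.7% in hippocampus and 47.3% in cortex, lay above Lrrc8a there. Of the 15 two-sided exact permutation tests of unpaired libraries, 8 passed after Benjamini-Hochberg adjustment. Since the shares of a library add up to a fixed total, these tests are not separate results for each member. With same-numbered sham libraries of hippocampus and cerebellum paired, an exact sign-flip test added after the values had been seen, 5 of 15 passed. The exact sign-flip test gave p = 0.0625 for Lrrc8a, Lrrc8c and Lrrc8d, the smallest that 5 pairs allow, and an adjusted p of 0.104, with all 5 pairs on the same side. The Lrrc8a share in hippocampus minus that in cerebellum was -22.2 points, and in cortex minus cerebellum it was -30.8 points (exact permutation test, adjusted p = 0.017 in each). Share tests with sham hippocampus reuse libraries of the contrast that chose the family. The Lrrc8c share was 4.74 points higher in hippocampus and 6.41 points higher in cortex than in cerebellum (exact permutation test, adjusted p = 0.017 in each). The Lrrc8d share was 6.99 points higher in hippocampus than in cortex and 8.47 points higher than in cerebellum (exact permutation test, adjusted p = 0.017 in each). The Lrrc8b share in hippocampus minus that in cortex was -13.7 points (exact permutation test, adjusted p = 0.0298), and in cortex minus cerebellum it was 22.9 points (0.017). Per kilobase of all exon bases, the Lrrc8c and Lrrc8d shares of hippocampus and cerebellum missed the threshold (exact permutation test, adjusted p = 0.0595 in each). The Lrrc8d share of these tissues also missed it without hippocampus sham 1 and 2 (0.067), and without cerebellum sham 1 the Lrrc8b share (12.5 points, 0.017) passed it. Without hippocampus sham 1 the Lrrc8a share was 11.8 points higher in hippocampus than in cortex (exact permutation test, adjusted p = 0.0397), a call it did not have with all libraries (8.56 points, 0.173).

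Genes that act with the channel were counted in 5 lists of 65 genes, of which 54 were tested in each tissue. After bulbectomy 27 were higher and 27 lower in the hippocampus, 19 higher and 35 lower in the cortex, and 21 higher and 33 lower in the cerebellum. By edgeR 0 of 54 passed the test in each tissue, and an unadjusted p under 0.05 was held by 12 in the hippocampus, 2 in the cortex and 2 in the cerebellum. These are 22.2%, 3.70% and 3.70% of the list genes, against 20.0%, 5.91% and 2.97% of all genes tested. DESeq2 called 2, 1 and 0 of them, where it called 6.09%, 0.262% and 0.0603% of all genes. Slc12a5, the potassium-chloride cotransporter KCC2 that keeps neuronal chloride low, had the smallest p of the cotransporter and WNK kinase list in every tissue. It measured 336 CPM after bulbectomy against 500 CPM after sham in the hippocampus, a log2 fold change of -0.55 ± 0.18. The values were 468 CPM against 662 CPM in the cortex (-0.51 ± 0.19, edgeR adjusted p = 0.768) and 431 CPM against 632 CPM in the cerebellum (-0.56 ± 0.24, edgeR adjusted p = 1). In that list 11 of 16 genes were lower in the hippocampus, 13 of 16 in the cortex and 13 of 16 in the cerebellum, with medians of -0.10, -0.14 and -0.19. Ano2, a calcium-activated chloride channel, led the anion channels in the hippocampus at -1.18 ± 0.39 and in the cortex at 1.09 ± 0.25 (edgeR adjusted p = 0.384). Of the anion channels, 10 of 15 were higher in the hippocampus, 5 of 16 in the cortex and 7 of 15 in the cerebellum.

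The remaining lists held no gene called by edgeR. The organic osmolyte list held transporters, the osmotic factor NFAT5 and other genes such as the chaperone Hspa4l. In that list 5 of 9 were higher in the hippocampus, 6 of 8 in the cortex and 3 of 9 in the cerebellum. There the smallest p were those of Hspa4l, a chaperone, at -0.76 ± 0.29 in the hippocampus, Slc6a8, the creatine transporter, at 0.17 ± 0.14 in the cortex, and Nfat5 itself at -1.49 ± 0.85 in the cerebellum. Among water channels and swelling-activated cation channels, 4 of 8 were higher in the hippocampus, 3 of 8 in the cortex and 4 of 8 in the cerebellum, led by Piezo1, a mechanosensitive channel, at -1.01 ± 0.35 in the hippocampus. Among genes of cGAMP and STING signalling, 3 of 6 were higher in the hippocampus, 2 of 6 in the cortex and 4 of 6 in the cerebellum, and Tmem173, which encodes STING, stood at 0.59 ± 0.33 in the hippocampus.

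Between sham tissues the 5 lists were called about as often as all genes tested. The shares called were 3.57% of 56 list genes against 3.30% of all genes for hippocampus against cortex, 26.8% against 28.4% for hippocampus against cerebellum, and 33.9% against 34.7% for cortex against cerebellum. Hippocampus against cortex, 2 of 56 genes passed the test, Ttyh2 at 0.99 ± 0.17 and Ano2 at 1.70 ± 0.39 (edgeR adjusted p = 0.00406 and 0.0226). Hippocampus against cerebellum, 6 were called higher and 9 lower. Ano2 averaged 10.5 CPM in sham hippocampus and 0.0646 CPM in sham cerebellum (edgeR adjusted p = 8.26e-08). Aqp11, an aquaporin, was 1.02 ± 0.18 higher, Slc12a7, the cotransporter KCC4, 1.05 ± 0.19 higher and Tmem173 1.56 ± 0.30 higher, while Slc6a8 was lower at -0.63 ± 0.13 and Aqp4, the astrocyte water channel, at -1.43 ± 0.50. Cortex against cerebellum, 7 were called higher and 12 lower, among them Ttyh2 at -1.49 ± 0.17 and Slc12a8 at -3.05 ± 0.45.

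Markers of other cell types moved beside Lrrc8a, and their part in it was not tested. In the hippocampus 8 of 10 astrocyte genes were higher after bulbectomy and 1, Sox9, was called, with sums that overlapped between the groups. Of all genes tested in the hippocampus, 1.55% were called. In the cortex the astrocyte sums were 4410 to 5460 CPM after bulbectomy and 3780 to 4780 CPM after sham, where 8 of 10 genes were higher and 0 were called. In the cerebellum the sums were 7730 to 7780 CPM after bulbectomy and 5470 to 7280 CPM after sham, but 5 of 10 genes were higher and the median log2 fold change was -0.05. Thalamus and habenula genes were higher in the hippocampus for 14 of 16, with 4 called, and summed to 353 to 690 CPM after bulbectomy and 127 to 531 CPM after sham. Their sums were 142 to 148 CPM after bulbectomy and 129 to 148 CPM after sham in the cortex, and 375 to 385 CPM and 329 to 875 CPM in the cerebellum. No astrocyte or thalamus and habenula gene was at 0 in every library of a group. Striatal genes were lower in the hippocampus for 17 of 18, through hippocampus sham 1 and 2. In the cortex they were higher for 14 of 17, with 0 called, and their sums of 1050 to 1320 CPM after bulbectomy lay above the 875 to 993 CPM after sham. Choroid plexus genes in the cortex summed to 18.8 to 31.8 CPM after bulbectomy and 6.29 to 12.8 CPM after sham, with 5 of 6 higher. Oligodendrocyte genes in the cortex were higher for 9 of 10, at 1890 to 2740 CPM after bulbectomy and 1480 to 2150 CPM after sham. Cerebellar granule cell genes in the hippocampus summed to 103 to 174 CPM after bulbectomy and 55.4 to 90 CPM after sham, with 7 of 9 higher and 1, Cbln1, called. After bulbectomy in the cerebellum, microglia genes were lower for 11 of 12, CA pyramidal cell genes for 7 of 7 and cortical layer genes for 8 of 10. Striatal genes were lower there for 13 of 16, while choroid plexus genes were higher for 6 of 10, and 0 of these were called. In bulk tissue fewer cells of a type and less RNA per cell cannot be told apart.

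The genes whose log2 CPM followed Lrrc8a most closely over the 24 libraries were Sdc4, a syndecan (Pearson r = 0.919, Spearman rho = 0.939), Dhrs3, a retinal reductase (0.899 and 0.890), Cnot9, a subunit of the CCR4-NOT complex (0.893 and 0.871), Tmem127 (0.892 and 0.893) and Mllt6 (0.881 and 0.782). These libraries fall into tissues and operations, which every such correlation reads together with depth. Over the 15 sham libraries alone the closest to Lrrc8a were Sugct, Sfxn5 and Cnnm4, with r between 0.908 and 0.915. Lrrc8b was followed by Mapk8, Man1a2 and Erbb4 with r between 0.977 and 0.981, Lrrc8c by Tlr7, Ankrd33b and Mertk with r between 0.939 and 0.943, and Lrrc8d by Drd5, Dchs2 and Gspt2 with r between 0.891 and 0.920.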

How the data were processed

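PolyA RNA of 24 tissue samples was sequenced from directional libraries, per the labels' protocols, and the submitters' processing notes name Trimmomatic, STAR, featureCounts and mm10 without versions. The authors deposited whole-number counts per gene and library, with summary lines for unassigned reads that were left out here (2.62% to 9.22% without a feature and 3.92% to 5.08% ambiguous). No header or label names the strand setting or the annotation release. Of 55487 identifiers, 55227 are in GENCODE M21, which gave exons and transcript sequences.

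Samples were grouped by labelled tissue and treatment. Counts were fitted with edgeR 4.0.16 in R 4.3.3 (filterByExpr, TMM, robust quasi-likelihood test, two-sided, Benjamini-Hochberg over all genes tested, called at an adjusted p under 0.05), within each tissue for bulbectomy against sham, over 15 sham libraries for tissues and over 24 libraries for the difference of effects. Levels are CPM with TMM scaling over all 24 libraries, and correlations used log2 CPM with a prior count of 2. The 95% intervals use the test's total degrees of freedom. Shares were compared by exact permutation tests. DESeq2 1.42.0, other scalings, no low-count filter, a replicate block and leaving out libraries were alternatives. The code was tested on simulated data. Same-numbered libraries tended to deviate together between sham cerebellum and sham hippocampus (correlations 0.25 to 0.44 over 5 pairs), by the data and not the labels. Pairs of other numbers ran between -0.47 and 0.37, so the ranges overlap. The genes named are the members, genes that share their exon bases, the most correlated genes, and in each list the genes called or of smallest p. The members and lists were chosen with earlier results of these data known.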

Additional observations from a re-analysis of the deposited data

Results flagged for a closer look

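In cerebellum sham 1, Lrrc8b measured 43.8 CPM against 7.06 to 9.91 CPM in the other cerebellum sham libraries, and its share of the family sum was 24.7% against 7.05% to 10.5%. The library stood far from the others of its group. The thalamus and habenula genes given above also peaked in it, as did cortical layer genes (458 CPM against 209 to 245 CPM). Cerebellar granule cell genes, a list that shares Zic1 with the thalamus list, peaked there too (4860 CPM against 3070 to 3730 CPM). Astrocyte genes were lowest there (5470 CPM against 6420 to 7280 CPM). In hippocampus bulbectomy 2, Lrrc8e made up 0.219% of the sum against 0.0657% to 0.0794% in the other hippocampus bulbectomy libraries, a value of 3 reads against 1 read in each. A single library far from its group was looked for in 36 groups of values and found in 3, where chance gives about 1 in 20. No member was above sham in every library of a tissue and below sham in every library of another.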

How the results depend on the processing

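The Lrrc8a difference kept its sign in every alternative run for bulbectomy in the 3 tissues, for the mean of cortex and cerebellum, for the difference of both effects and for sham forebrain against sham cerebellum, and its size after bulbectomy ran between 2.05 and 2.34 in the hippocampus, 0.98 and 1.51 in the cortex and 1.39 and 1.79 in the cerebellum. Calls moved more. With DESeq2, Lrrc8a was called in the cortex (1.2) and cerebellum (1.59), 1 member was called in each of these, and genes called numbered 938, 42 and 11 against 217, 3 and 2 by edgeR; they numbered 116 against 7 for the mean of both tissues and 910 against 500 for sham hippocampus against cortex. With no low-count filter, the cortex had 24 genes and 1 member called, Lrrc8a at 1.18, the mean of both tissues 16 genes, and the sham Lrrc8a calls against cerebellum were lost (-0.63 for hippocampus and -0.60 for cortex). RLE scaling called 7 genes in the cortex. Fitting all 24 libraries together called 5 genes in the cortex and 1 member in the cerebellum, Lrrc8a at 1.63. Without hippocampus sham 1 and 2, 348 genes were called in the hippocampus and 1 member against cerebellum, where Lrrc8a stood at -0.49. Bulbectomy and sham numbers met no rule for pairing (correlations -0.29 to 0.15 in hippocampus and cortex, and 0.23 and 0.32 for the 2 pairs of the cerebellum). The replicate block called 76 genes in the hippocampus, 13 in the cortex and 0 in the cerebellum, 2 genes and 0 members for the mean of both tissues (Lrrc8a 1.43, adjusted p = 0.115), and 765 genes and 1 member, Lrrc8b, for sham hippocampus against cortex; it also called Lrrc8d for sham cortex against cerebellum (0.44). With 1 library left out, genes called ran between 30 and 477 in the hippocampus, 1 and 573 in the cortex, 0 and 36 in the cerebellum, 2 and 172 for the mean and 284 and 1101 for sham hippocampus against cortex; members called ran between 0 and 1 in the cortex, the cerebellum, the mean and sham hippocampus against cortex. Lrrc8a ran between 1.31 and 1.58 for the mean, -0.74 and -0.49 for sham hippocampus and -0.67 and -0.48 for sham cortex against cerebellum. The sham shares kept their direction except those of Lrrc8d and Lrrc8e for cortex against cerebellum, which passed no threshold and ran between -4.18 and 2.31 and between -0.243 and 0.00209 points; the Lrrc8c and Lrrc8d shares of hippocampus minus cerebellum missed the threshold with all exon bases (adjusted p = 0.0595 each). With the replicate block in the hippocampus and cerebellum shares, 5 share tests passed against 8. The cause was not tested. Depth limits Lrrc8e in every library and Lrrc8a in hippocampus sham 1, with 29 reads.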
